A study of Mus musculus with 24 samples.

Results

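The response of C2C12 cells to siRNAs against the ubiquitin ligase receptors FEM1B and KEAP1 was measured by RNA sequencing. It is described here across all genes. C2C12 is a line of mouse myoblasts, the muscle precursor cells that exit the cell cycle and fuse into myotubes when serum is withdrawn. The compared libraries were chosen by their siRNA label alone: 3 libraries of cells given an siRNA against Fem1b together with one against Keap1 (siFem1b/Keap1), and 3 of cells given a non-targeting siRNA (siCont). They make up 6 of the 12 libraries and 12 of the 24 sequencing runs of the series. The other 6 libraries, 3 of cells given the Fem1b siRNA alone (siFem1b) and 3 given the Keap1 siRNA alone (siKeap1), enter the same statistical model and are set beside the double depletion. Every group was of the same parental line and was labelled as undifferentiated with no other treatment named. The cells were grown below confluence in serum-containing medium and were taken 48 h after siRNA treatment. A single siRNA was used per gene, and the labels give no dose and do not say whether the replicate libraries came from separate cultures. Each p-value therefore reflects how these libraries scatter, which may be a technical spread.

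KEAP1 is the redox-sensing receptor of a CUL3 ubiquitin ligase. It holds the transcription factor NRF2, made from Nfe2l2, at a low level, and oxidation or electrophiles block that turnover so that NRF2 can switch on genes for glutathione, thioredoxin, NADPH, iron storage and detoxification. FEM1B is a receptor of CUL2 ubiquitin ligases, known for binding FNIP1, a partner of folliculin that takes part in the control of mitochondria and of lysosomal nutrient signalling, when its cysteines are reduced. In myoblasts the same redox and energy pathways border on the choice between dividing and differentiating, which is governed by MYOD1, MYF5 and myogenin.

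Each targeting siRNA has its full match in the coding sequence of its target, and the control siRNA has a full match in 0 annotated transcripts measured here. The lines below give the target site in the mRNA (capitals) with the bases around it, and the guide strand that pairs with it, whose seed, positions 2 to 8 from the 5′ end, is in capitals because its matches elsewhere are described below. The sequences of the siRNAs are those of the study's design text. Positions are on GRCm38.
Fem1b target site, chr9:62796575-62796593, minus strand, exon 2 of 2: gcgaaGAAGATCAGTGCAGAATTAacaag
Keap1 target site, chr9:21231850-21231868, minus strand, exon 4 of 6: tagtcGCGCCAATGTTGACACGGAggatt
siFem1b guide: uAAUUCUGcacugaucuuc
siKeap1 guide: uCCGUGUCaacauuggcgc
siCont guide: uCAGAAAAcauguaaacca

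Both targets were depleted in every library of the double treatment. Fem1b had 12.4, 14.2 and 11.6 CPM in the siFem1b/Keap1 libraries, against 95.2, 94.1 and 102 CPM in the siCont libraries, CPM being counts scaled to the same effective total in each library. The groups lay far apart, and Fem1b was 7.61-fold lower (log2 fold change -2.93 with an SE of 0.0612, adjusted p = 5.3e-17), as edgeR's quasi-likelihood test over all genes gives it. Keap1 had 9.57, 9.2 and 9.38 CPM in the siFem1b/Keap1 libraries, against 60.6, 63.3 and 61.4 CPM in the siCont libraries. It too showed no overlap and was 6.58-fold lower (log2 fold change -2.72 with an SE of 0.071, adjusted p = 4.8e-16). The amounts left were 13.1% of the siCont mean for Fem1b and 15.2% for Keap1. In the single treatments Fem1b stood at 13.2 CPM with siFem1b and Keap1 at 9.99 CPM with siKeap1, and the test between double and single treatment did not pass for Keap1 against siKeap1 (log2 difference -0.089, SE 0.0826, adjusted p = 0.36) or for Fem1b against siFem1b (log2 difference -0.055, SE 0.0692, adjusted p = 0.56).

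The siFem1b/Keap1 libraries held 36703038, 36908871 and 31883767 estimated counts, and the siCont libraries 39611101, 32961172 and 42980937. Replicates were tight (edgeR's common biological coefficient of variation was 0.0503), and no library stood apart from its group on the first 2 principal components, which carried 55.5% and 21.2% of the variance and separated libraries with and without the Fem1b siRNA (the first) and with and without the Keap1 siRNA (the second). Mitochondrially encoded mRNAs took 2.18% to 2.64% of counts in siFem1b/Keap1 and 1.74% to 1.93% in siCont. The 20 most abundant genes took 7.65% to 7.76% in siFem1b/Keap1 and 7.86% to 8.04% in siCont.

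In cells given both siRNAs most expressed genes differed in level from siCont, largely by small amounts. Of 14577 tested genes, 9840 (67.5%) passed an adjusted p of 0.05, 4934 higher in siFem1b/Keap1 (33.8%) and 4906 lower (33.7%). At 2-fold or more the response was lopsided, with 1617 genes higher (11.1%) and 419 lower (2.87%). In 10246 genes (70.3%) the 3 siFem1b/Keap1 libraries all lay on one side of the 3 siCont libraries. The even split rests on the scaling: with library totals alone, 6134 genes were higher and 3746 lower (62.1% of calls higher, against 50.1%), and the median log2 fold change over all genes moved to 0.128 against 0.005 with the scaling used here. Small shifts shared by a whole gene list or family are therefore relative to the median gene. Lists that turn with the scaling are named as such below. The families under other observations were counted with the scaling used here alone.

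**Figure D1:**
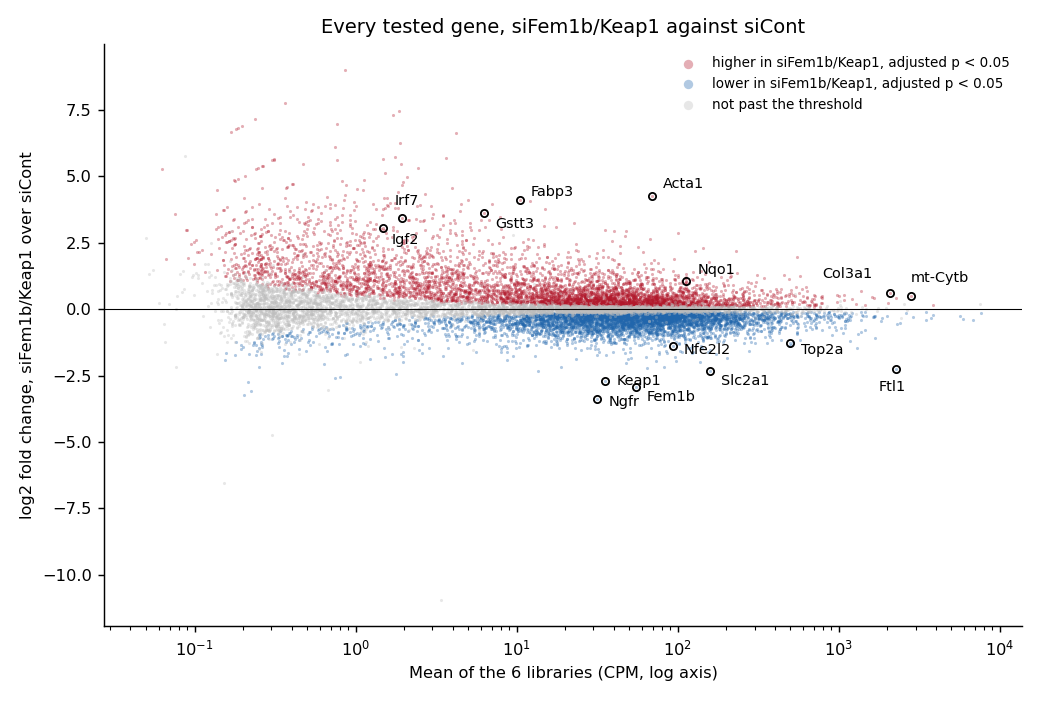
Each of the 14577 tested genes by its mean CPM over the 6 libraries (log axis) and its log2 fold change, siFem1b/Keap1 over siCont, coloured by direction where the adjusted p is under 0.05. Rises reach further than falls, Ngfr, Fem1b and Keap1 are the lowest of the labelled genes, and Ftl1 fell from a high level of expression.

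The largest rises among genes with a mean of at least 5 CPM over the 6 libraries joined muscle, lipid, redox and secreted proteins. Rgs5, given with the pericyte markers below, was 99-fold higher and had a lower mean than that. Acta1, the skeletal muscle actin of the thin filament, had 127, 129 and 142 CPM in the siFem1b/Keap1 libraries, against 7.8, 6.75 and 6.11 CPM in the siCont libraries. All 3 treated libraries exceeded every control library many times over, and Acta1 was 19.2-fold higher (log2 fold change 4.27 with an SE of 0.069, adjusted p = 2.7e-18). Fabp3, the heart and muscle fatty acid binding protein, had 18.7, 20.4 and 20.2 CPM in the siFem1b/Keap1 libraries, against 1.15, 1.43 and 0.88 CPM in the siCont libraries. It was 17.4-fold higher (log2 fold change 4.12 with an SE of 0.119, adjusted p = 1.4e-15). Il1rn, the natural antagonist of the interleukin-1 receptor, had 22.9, 23.3 and 22.3 CPM in the siFem1b/Keap1 libraries, against 1.41, 1.53 and 1.22 CPM in the siCont libraries, without overlap, and was 16.6-fold higher. The other 9 of these rises included Sh3tc1 (15.5-fold higher), Gpnmb (13.5-fold higher), a glycoprotein of lysosomes and melanosomes, Gstt3 (12.1-fold higher), a theta-class glutathione transferase, Rab3b (11-fold higher), a GTPase of regulated secretion, and Lmod1 (10.3-fold higher), an actin nucleator of smooth muscle. They also included Galnt6 (10.2-fold higher), which starts mucin-type O-glycans, Mmp15 (9.45-fold higher), a membrane-bound metalloproteinase, Slc16a4 (9.31-fold higher), of the monocarboxylate transporter family, and Tcn2 (8.63-fold higher), the plasma carrier of vitamin B12. Their adjusted p-values ran from 2.7e-18 for Acta1 to 4.4e-12 for Slc16a4.

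The largest fall was in a neurotrophin receptor, followed by the targets themselves. Ngfr, the low-affinity neurotrophin receptor, had 5.84, 5.18 and 5.56 CPM in the siFem1b/Keap1 libraries, against 59.5, 58.6 and 55.8 CPM in the siCont libraries. No treated library came near the control range, and Ngfr was 10.5-fold lower (log2 fold change -3.39 with an SE of 0.076, adjusted p = 8.7e-17). Slc2a1, the basal glucose transporter GLUT1, had 51.6, 54.5 and 54.4 CPM in the siFem1b/Keap1 libraries, against 267, 269 and 262 CPM in the siCont libraries. It was 4.97-fold lower (log2 fold change -2.31 with an SE of 0.0426, adjusted p = 9.2e-18). Ung, the glycosylase that removes uracil from DNA, had 4.12, 4.56 and 4.75 CPM in the siFem1b/Keap1 libraries, against 21.6, 24.5 and 21.7 CPM in the siCont libraries, and was 5.04-fold lower. The remaining large falls were Ftl1, described with iron below, Aldh1l2 (4.61-fold lower), the mitochondrial formyltetrahydrofolate dehydrogenase, Chic2 (4.57-fold lower), Tmem65 (4.56-fold lower), Lmbrd2 (4.11-fold lower), C1qbp (4.0-fold lower), a mitochondrial matrix protein, and Ntn1 (3.92-fold lower), the guidance cue netrin.

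Measured as mass of RNA rather than as fold, the gains and losses fell on other genes. The largest gains in mean CPM were in mt-Cytb (3253 ± 285 CPM in siFem1b/Keap1 and 2342 ± 132 CPM in siCont), Col3a1 (2541 ± 33 CPM in siFem1b/Keap1 and 1652 ± 18.4 CPM in siCont), mt-Atp6 (2595 ± 182 CPM in siFem1b/Keap1 and 1927 ± 131 CPM in siCont), Npnt (872 ± 15.4 CPM in siFem1b/Keap1 and 225 ± 13 CPM in siCont) and Lgals3 (1681 ± 56 CPM in siFem1b/Keap1 and 1055 ± 84.4 CPM in siCont), with ± giving the SD of 3 libraries here and below. Npnt encodes nephronectin, an integrin ligand of basement membranes. Its libraries read 861, 889 and 864 CPM in the siFem1b/Keap1 libraries, against 222, 214 and 239.5 CPM in the siCont libraries. The largest losses were in Ftl1, Vim (5816 ± 76.9 CPM in siFem1b/Keap1 and 7735 ± 90.3 CPM in siCont), Actb (5154 ± 210.5 CPM in siFem1b/Keap1 and 6652 ± 176 CPM in siCont), Ptma (698 ± 22.2 CPM in siFem1b/Keap1 and 1903 ± 22.5 CPM in siCont) and Tuba1b (1086 ± 23.7 CPM in siFem1b/Keap1 and 2289 ± 121 CPM in siCont). Vim and Actb, both cytoskeletal, fell by less than 1.5-fold (1.33-fold lower and 1.29-fold lower), whereas Ptma, the chromatin-linked prothymosin, which holds a siFem1b match, was 2.73-fold lower and the tubulin gene Tuba1b 2.11-fold lower.

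Many of the strongest falls held a match to an siRNA seed. A guide strand can repress mRNAs that pair with its seed alone, mainly through their 3′ UTR, in the manner of a miRNA. The searched word was CAGAATT for siFem1b, GACACGG for siKeap1 and TTTTCTG for siCont, on the mRNA strand of 13235 tested genes with a 3′ UTR of at least 30 bases. Of the 10 largest falls other than the targets themselves, 7 held a match to siFem1b or siKeap1, and of the 12 largest rises at a mean of at least 5 CPM 0 did, where 14.5% of all searched genes hold one. Of the searched genes that were at least 2-fold lower, 142 of 362 (39.2%) had a match, and of those at least 2-fold higher, 149 of 1505 (9.90%). Sites of these falling genes and of Nfe2l2, and that of Igf2, which rose, show what was matched. Each line holds 30 bases, the capitals mark the unbroken run that pairs with the guide, and the position is that of the 7-base match.
Ung, siKeap1 match, 7-base match at chr5:114138481-114138487, plus strand: gagtggagaaaTGACACGGAtagatctcta
Slc2a1, siFem1b match, 7-base match at chr4:119136617-119136623, plus strand: ctttgatggctcCAGAATTtttaatgaaag
Slc2a1, siKeap1 match, 7-base match at chr4:119137156-119137162, plus strand: ttaactgctgaaGACACGGAcactcctgcc
Lmbrd2, siFem1b match, 7-base match at chr15:9199354-9199360, plus strand: aaaatattactaCAGAATTcacatgcttta
Lmbrd2, siKeap1 match, 7-base match at chr15:9198718-9198724, plus strand: gtactttgaaggGACACGGAtggttatcac
C1qbp, siFem1b match, 7-base match at chr11:70978020-70978026, minus strand: ctcccttggcatCAGAATTAtgcttcaaaa
Ntn1, siKeap1 match, 7-base match at chr11:68211479-68211485, minus strand: cagcccctcagTGACACGGctccctctgct
Nfe2l2, siFem1b match, 7-base match at chr2:75675854-75675860, minus strand: taagtaactaTGCAGAATTAtagccaaagc
Igf2, siFem1b match, 7-base match at chr7:142652290-142652296, minus strand: caggtcaactTGCAGAATTActgaagaatt

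The share of genes that fell is given for each kind of match, as a description. Of 1658 genes with a siFem1b match, 48.9% fell and the median log2 fold change was -0.177. The 328 genes with a siKeap1 match gave 48.5% and -0.145, and the 73 genes with both gave 67.1% and -0.36. The 11322 genes with a match of neither gave 32.8% and 0.036, and all 13235 gave 35% and 0.0084. For the 3153 genes that match siCont the values were 36.3% and -0.013. Matched 3′ UTRs are longer (median 2414 and 2212 bases for siFem1b and siKeap1 matches, against 783 without), so the shares were also taken within 3 length classes of equal size, where siFem1b matches fell in 59.3%, 51.8% and 47.1% from the shortest to the longest class, siKeap1 matches in 41.7%, 42.3% and 51.9%, and genes without a match in 32.8%, 33.8% and 31.4%. With the longest coding transcript searched instead, the shares were 47.9% of 2073 genes for siFem1b, 49.5% of 370 for siKeap1 and 32.0% of 11322 with neither. In the single treatments, where the siCont libraries are shared, siFem1b matches fell in 44.3% of genes with siFem1b and 28.7% with siKeap1, and siKeap1 matches in 32.9% with siFem1b and 47.6% with siKeap1. Over all searched genes 33.4% fell with siFem1b and 25.2% with siKeap1, and among genes with a match of neither 31.9% and 24.2%. Leaving out the 1913 genes with a match of either, 8455 of 12664 genes were called, 4469 higher and 3986 lower. Of 180 named genes searched, 40 held a match to siFem1b or siKeap1, of which 30 fell and 10 rose. Most named genes were chosen by the size or p-value of their change, so this split is no rate over all genes. Besides those marked beside their values, the falls with a match were Adh7, Canx, Chic2, Crim1, Elovl6, Kif20a, Mrpl47, Pdk1, Rbl1, Slc11a2, Spp1, Srxn1, Tfam, Tmem65 and Uhrf1. The other rises with a match were Cat, Cebpa, Gpr137b, Gsn, Igf2r, Ldb3, Ly6a and Trp53inp1. Whether a given gene fell through its match was not tested.

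**Figure D2:**
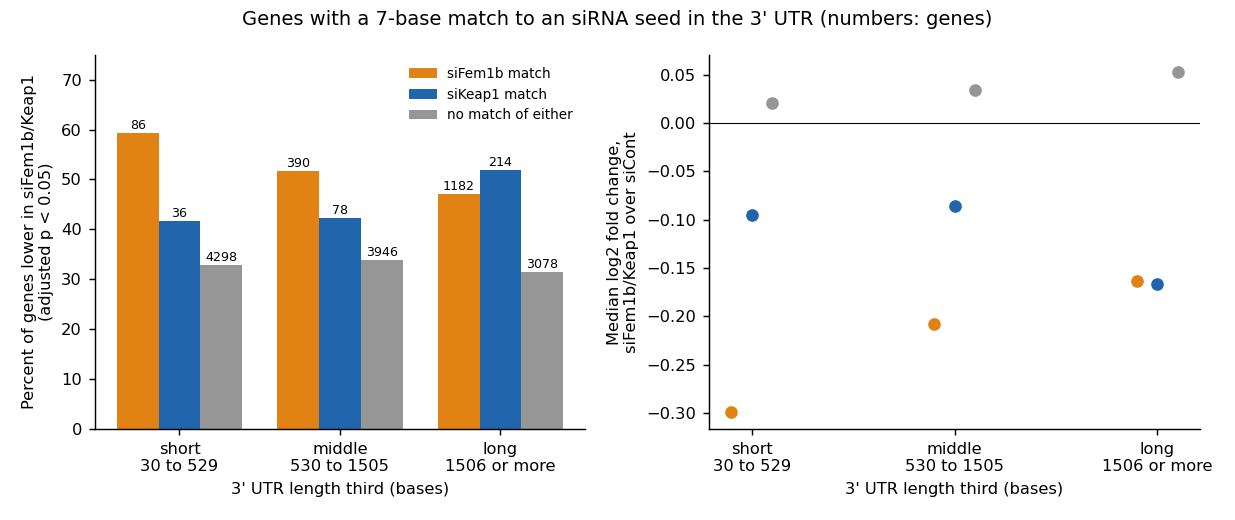
Left, the percent of genes lower in siFem1b/Keap1 (adjusted p under 0.05) by 3′ UTR length class, for genes whose 3′ UTR holds a 7-base siFem1b match, a siKeap1 match or neither, with the number of genes above each bar. Right, the median log2 fold change of the same genes, which is below 0 for both matched classes in each length class and above 0 for genes without a match.

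Among the ligases and their regulators the siRNA targets stood alone in size. Of 15 tested genes of both ligases, 6 fell (40%), the targets included, near the 33.7% over all tested genes. Vhl, the CUL2 receptor for hypoxia-inducible factors, was the 1 that rose (6.67%, against 33.8% over all), by 0.36 on the log2 scale. Called in either direction were 46.7% of the list and 67.5% of all tested genes. Fem1a, the closest relative of Fem1b, fell with 57.8 ± 0.824 CPM in siFem1b/Keap1 and 72.9 ± 0.307 CPM in siCont (1.26-fold lower), and Cand1, the exchange factor of cullin receptors, with 278 ± 7.94 CPM in siFem1b/Keap1 and 364 ± 12.2 CPM in siCont (1.31-fold lower). Fem1a holds a 3′ UTR match to each targeting siRNA. With library totals alone 5 of the 15 were higher and 5 lower, and 2 were higher without siFem1b library 1 or library 2, so the small shifts in this group depend on such choices. Fnip1, the best-known FEM1B substrate, had 65.5, 72.4 and 60.9 CPM in the siFem1b/Keap1 libraries, against 67.9, 63 and 71 CPM in the siCont libraries. These ranges overlap and the test did not pass (log2 fold change -0.024, SE 0.0702, adjusted p = 0.78). Its partner gene Flcn had 53.9, 57.8 and 57 CPM in the siFem1b/Keap1 libraries, against 33.6, 34.8 and 33.8 CPM in the siCont libraries, with no overlap, and was 1.65-fold higher (log2 fold change 0.72 with an SE of 0.0451, adjusted p = 5.6e-11). Of the 14 of 15 genes of the FLCN, FNIP and TFE list that were tested, 11 rose (78.6%) and 1 fell (7.14%), with a median log2 fold change of 0.32, against 33.8% and 33.7% over all genes. The rises included the lysosomal scaffold genes Lamtor3 (1.49-fold higher) and Lamtor4 (1.98-fold higher), and the fall was Fnip2 (1.93-fold lower), the paralog of Fnip1, which holds a siFem1b match.

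Nfe2l2 mRNA, which encodes NRF2, fell steeply. It had 51.4, 51.1 and 51.6 CPM in the siFem1b/Keap1 libraries, against 136, 136 and 136 CPM in the siCont libraries. The groups did not overlap and the spread within each was under 1 CPM (SD 0.292 and 0.551), and Nfe2l2 was 2.65-fold lower (log2 fold change -1.40 with an SE of 0.0364, adjusted p = 4.5e-16). Its 3′ UTR pairs with 10 bases of the siFem1b guide, shown above. Beside it, Nfe2l1, the membrane-tethered factor that controls proteasome genes, rose (395 ± 11.2 CPM in siFem1b/Keap1 and 297 ± 9.94 CPM in siCont, 1.33-fold higher), as did Mafk, a small partner of NRF proteins (46 ± 1.32 CPM in siFem1b/Keap1 and 34.3 ± 1.08 CPM in siCont, 1.34-fold higher). Nfe2l3 was near its detection limit, with 1.04, 0.834 and 0.511 CPM in the siFem1b/Keap1 libraries, against 0.235, 0.0637 and 0.122 CPM in the siCont libraries.

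Genes known as NRF2 targets moved both ways, where 33.8% of all tested genes rose and 33.7% fell. Of the 44 of 46 listed genes that were tested, 28 rose (63.6%) and 11 fell (25%), with a median log2 fold change of 0.34 against 0.005 over all genes. Rises ran up to Cd36, a fatty acid transporter (3.95 on the log2 scale), Gstm2 (1.53) and Aox1 (1.48), and falls down to Ftl1 (-2.25), Slc7a11 (-0.85) and Abcc1 (-0.70), extremes that, like those of the other lists below, were picked after their values were seen. Cd36 did not meet the rule for the largest rises given above (a mean of at least 5 CPM, groups not overlapping). Nqo1, the quinone reductase that serves as the standard NRF2 readout, had 153, 152 and 152 CPM in the siFem1b/Keap1 libraries, against 70.2, 74.7 and 77.3 CPM in the siCont libraries. The treated libraries lay close together and clear of the controls. Slc7a11, the cystine importer that feeds glutathione synthesis, had 11.3, 9.17 and 11.9 CPM in the siFem1b/Keap1 libraries, against 19.9, 17.9 and 20.3 CPM in the siCont libraries, and was 1.8-fold lower (log2 fold change -0.85 with an SE of 0.0909, adjusted p = 4.3e-07). The subunits of glutamate-cysteine ligase, the first enzyme of glutathione synthesis, parted: catalytic Gclc had 88.9, 90.5 and 94.8 CPM in the siFem1b/Keap1 libraries, against 73.2, 68.5 and 65.7 CPM in the siCont libraries, and modifier Gclm had 60.1, 59.6 and 59.4 CPM in the siFem1b/Keap1 libraries, against 82.5, 84 and 83.5 CPM in the siCont libraries. Gclc was 1.32-fold higher (log2 fold change 0.40 with an SE of 0.0453, adjusted p = 2.1e-07) and Gclm 1.4-fold lower (log2 fold change -0.48 with an SE of 0.0458, adjusted p = 2.1e-08), each without overlap. Heme oxygenase Hmox1 (35.9, 35 and 38.5 CPM in the siFem1b/Keap1 libraries, against 49.5, 49.9 and 48.4 CPM in the siCont libraries) and sulfiredoxin Srxn1 (126, 124 and 119.9 CPM in the siFem1b/Keap1 libraries, against 144, 150.0 and 150.1 CPM in the siCont libraries) were 1.35-fold lower and 1.2-fold lower.

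The wider redox lists differed in how many members rose, where 33.8% of all tested genes rose and 33.7% fell. In glutathione synthesis and use, 28 of the 38 tested members (73.7%) rose and 7 (18.4%) fell (median 0.41). The rises included the transferase genes Gstm1, with 109 ± 1.58 CPM in siFem1b/Keap1 and 49.2 ± 2.78 CPM in siCont (2.21-fold higher), and microsomal Mgst3, with 130.3 ± 1.25 CPM in siFem1b/Keap1 and 58.8 ± 2.36 CPM in siCont (2.22-fold higher). Slc3a2, the heavy chain that carries SLC7A11 and SLC7A5 to the membrane, fell (92.7 ± 3.63 CPM in siFem1b/Keap1 and 187 ± 4.42 CPM in siCont, 2.02-fold lower). Among thioredoxins, peroxiredoxins and superoxide dismutases, 14 of the 25 tested members (56%) rose and 9 (36%) fell. Catalase Cat (1.72-fold higher), methionine sulfoxide reductase Msrb3 (1.61-fold higher) and extracellular Sod3 (1.72-fold higher) rose, while Prdx6, which reduces phospholipid peroxides, fell (1.45-fold lower). In NADPH production, 6 of the 23 tested members (26.1%) rose and 12 (52.2%) fell (median -0.20). G6pdx, the entry enzyme of the pentose phosphate pathway, had 384, 392 and 399.7 CPM in the siFem1b/Keap1 libraries, against 213, 220.3 and 213 CPM in the siCont libraries. Falls included the folate branch: Mthfd2 (42 ± 0.965 CPM in siFem1b/Keap1 and 126 ± 4.04 CPM in siCont, 3.0-fold lower), Mthfd1l (2.59-fold lower) and Shmt2 (3.01-fold lower) are mitochondrial enzymes of one-carbon metabolism, and Shmt2 holds a siFem1b match. In aldehyde, quinone and phase I detoxification, 25 of the 33 tested members (75.8%) rose and 4 (12.1%) fell (median 0.67). Cbr2, a carbonyl reductase, had 84.9, 79.3 and 88.2 CPM in the siFem1b/Keap1 libraries, against 9.73, 12.7 and 10.7 CPM in the siCont libraries, all treated libraries above all controls (7.66-fold higher, log2 fold change 2.94 with an SE of 0.0691, adjusted p = 1.3e-16). Aldh3b1, an aldehyde dehydrogenase, was 3.89-fold higher.

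The antioxidant response element, the DNA word TGACNNNGC bound by NRF proteins with small MAF partners, was present on either strand in the promoter window of 11 of 35 NRF2 list genes (31.4%) and of 16.3% of all 10825 tested genes with a RefSeq promoter window (GRCm38.p6, 250 bases before to 50 after the start). In windows of genes at least 2-fold higher its share was 15.3%, and in those at least 2-fold lower 17%. A list of known targets can be rich in a word whatever the treatment did. Word shares of lists, here and below, are therefore descriptions only. The window of G6pdx is shown because its mRNA rose.
G6pdx promoter, chrX:74428884-74428983, minus strand, element in capitals: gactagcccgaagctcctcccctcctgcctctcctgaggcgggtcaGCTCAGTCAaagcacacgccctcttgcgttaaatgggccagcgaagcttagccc

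Iron genes were marked by loss of ferritin light chain. Ftl1 had 784, 758 and 834 CPM in the siFem1b/Keap1 libraries, against 3701, 4020.0 and 3583 CPM in the siCont libraries. The groups lay far apart with no overlap, and Ftl1 was 4.76-fold lower (log2 fold change -2.25 with an SE of 0.0616, adjusted p = 6.3e-15). Ferritin heavy chain Fth1 had 1296, 1255 and 1302 CPM in the siFem1b/Keap1 libraries, against 1427, 1599 and 1468 CPM in the siCont libraries, and was 1.17-fold lower (adjusted p = 1.6e-04). On the length-corrected TPM scale the deposited values summed to 1709 ± 66.6 TPM for Ftl1 and 2923 ± 33.4 for Fth1 in siFem1b/Keap1, against 7531 ± 221 and 3188 ± 67.2 in siCont, so that the light chain changed from the more abundant to the less abundant subunit mRNA. Ftl1 has near-identical pseudogene copies, and how shared reads were divided between them is uncertain. Of the 30 of 31 iron, heme and ferritin genes that were tested, 11 rose (36.7%) and 12 fell (40.0%), near the 33.8% and 33.7% over all genes. The falls included the importers Slc39a14 (64.3 ± 2.41 CPM in siFem1b/Keap1 and 127 ± 1.85 CPM in siCont, 1.97-fold lower) and Slc11a2 (1.41-fold lower), and the biliverdin reductase Blvrb rose (24.8 ± 0.318 CPM in siFem1b/Keap1 and 11 ± 1.39 CPM in siCont, 2.27-fold higher).

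Muscle genes rose although the cells were kept undifferentiated. Over all tested genes 33.8% rose and 33.7% fell. The identity of the line was checked first: of 9 tested myoblast markers, 6 rose and 2 fell, their summed level was 2390.0 to 2455 CPM in siFem1b/Keap1 and 2179 to 2227 CPM in siCont, and Myod1, Myf5, Pax7 and Cdh15 were all expressed in both groups. Myf5 had 75.1, 75 and 74 CPM in the siFem1b/Keap1 libraries, against 31.9, 35.7 and 34.9 CPM in the siCont libraries, and Myod1 had 63.3, 67.2 and 67 CPM in the siFem1b/Keap1 libraries, against 88, 86.4 and 90.5 CPM in the siCont libraries. These factors, which commit cells to the muscle lineage, thus moved apart, Myf5 2.19-fold higher and Myod1 1.34-fold lower, each with no overlap between groups. Pax7 was 1.7-fold higher and Cdh15, the myoblast cadherin, 1.27-fold lower. In the list of myoblast identity and myogenic regulators, 27 of the 40 tested members (67.5%) rose and 8 (20%) fell, with 5 falls under library totals alone. Notch3 (110.3 ± 2.15 CPM in siFem1b/Keap1 and 50.4 ± 1.42 CPM in siCont) and its effector Hey1 (14.4 ± 0.428 CPM in siFem1b/Keap1 and 4.73 ± 0.526 CPM in siCont), and Id3 (169 ± 8.24 CPM in siFem1b/Keap1 and 77.1 ± 6.53 CPM in siCont), which blocks MYOD1 from binding DNA, were 2.19-fold higher, 3.04-fold higher and 2.19-fold higher.

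Of the 71 of 77 genes listed for muscle differentiation and the sarcomere that were tested, 53 rose (74.6%) and 6 fell (8.45%), with a median log2 fold change of 1.09. Several of these start from low levels in myoblasts, and a gene low in siCont could pass the expression filter through a treated group. Myog, the factor that starts terminal differentiation, had 5.22, 5.47 and 4.21 CPM in the siFem1b/Keap1 libraries, against 1.54, 1.85 and 1.32 CPM in the siCont libraries, and was 3.21-fold higher (log2 fold change 1.69 with an SE of 0.125, adjusted p = 6.5e-10). The largest members were Acta1, Tnnc2 (3.89 on the log2 scale), a fast troponin subunit, and Mymx (3.36), the micropeptide of myoblast fusion, and the lowest were Mylk4 (-1.22) and Tnnt2 (-0.51). Neb, the giant ruler protein of the thin filament, had 12, 11.4 and 10.8 CPM in the siFem1b/Keap1 libraries, against 2.09, 1.81 and 1.76 CPM in the siCont libraries. Ldb3, a Z-disc protein (37.5 ± 0.425 CPM in siFem1b/Keap1 and 15.4 ± 0.374 CPM in siCont, 2.43-fold higher), and Musk, the kinase of the neuromuscular synapse (67.5 ± 2.79 CPM in siFem1b/Keap1 and 25.8 ± 2.37 CPM in siCont, 2.61-fold higher), also rose, at higher levels. Igf2, the growth factor that myoblasts make on differentiation, had 2.69, 3.23 and 1.99 CPM in the siFem1b/Keap1 libraries, against 0.235, 0.319 and 0.391 CPM in the siCont libraries. The treated libraries were all above the controls at a low level (8.31-fold higher, log2 fold change 3.06 with an SE of 0.228, adjusted p = 7.8e-10), and the 3′ UTR of Igf2 holds the siFem1b match printed above. In the IGF list 7 of 16 tested members rose (43.8%) and 7 fell (43.8%), against 33.8% and 33.7% over all genes. Igfbp3 (5.24-fold higher), Igfbp6 (2.36-fold higher) and Igf2r (2.09-fold higher) rose, and Igfbp2 (281 ± 18.6 CPM in siFem1b/Keap1 and 724 ± 22 CPM in siCont) was 2.58-fold lower. In bulk RNA, more cells of a differentiated kind and more RNA per cell cannot be told apart. The E-box CAGCTG, bound by MYOD1 and myogenin, was in the promoter window of 28 of 55 muscle list genes (50.9%) and of 18.2% of all windows. Its share was 25.8% in windows of genes at least 2-fold higher and 15.6% in those at least 2-fold lower. The window of Acta1 holds an E-box.
Acta1 promoter, chr8:123894926-123895025, minus strand, E-box in capitals: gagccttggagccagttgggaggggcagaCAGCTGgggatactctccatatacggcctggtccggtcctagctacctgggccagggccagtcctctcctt

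**Figure D3:**
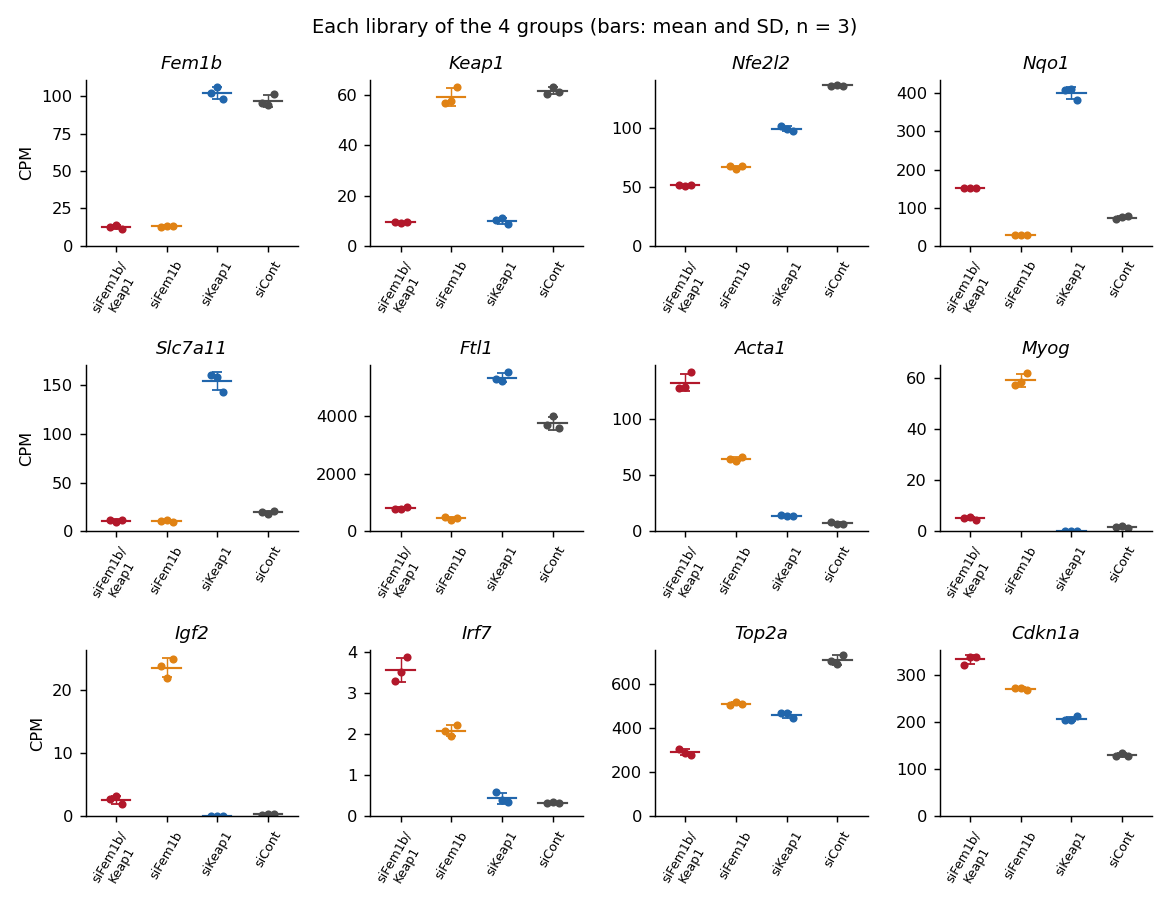
CPM of 12 genes in each library of the 4 groups, with lines at the mean and bars for the SD (n = 3). In siFem1b/Keap1, Fem1b and Keap1 are both low, Acta1 is above all other groups, Myog and Igf2 are above siCont and far below siFem1b, and Top2a is the lowest of the 4 groups.

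Cell cycle genes fell as a block, where 33.8% of all tested genes rose and 33.7% fell. All 46 tested mitosis genes (100%) were lower, their median log2 fold change being -0.98, in a range from -1.70 for Kif20a to -0.19 for Ckap2, and with library totals alone 45 of them were. Top2a, the topoisomerase that untangles chromosomes, had 306, 286 and 278 CPM in the siFem1b/Keap1 libraries, against 702, 690.1 and 730.2 CPM in the siCont libraries. The groups were far apart (2.44-fold lower, log2 fold change -1.28 with an SE of 0.0408, adjusted p = 5.6e-15). Kif20a, a kinesin of cytokinesis, had 81.6 ± 2.33 CPM in siFem1b/Keap1 and 266 ± 5.02 CPM in siCont (3.26-fold lower), the spindle factor Tpx2 119.6 ± 3.38 CPM in siFem1b/Keap1 and 267 ± 3.02 CPM in siCont (2.23-fold lower), and separase Espl1 79.1 ± 2.44 CPM in siFem1b/Keap1 and 188 ± 4.54 CPM in siCont (2.38-fold lower). The summed level of the list was 3968 to 4164 CPM in siFem1b/Keap1 and 8062 to 8207 CPM in siCont. Of 46 tested DNA replication genes, 45 fell (97.8%) and 0 rose (median -0.73). Mcm5, a subunit of the replicative helicase, had 124, 121 and 123 CPM in the siFem1b/Keap1 libraries, against 237, 248 and 244 CPM in the siCont libraries, and was 1.98-fold lower (log2 fold change -0.99 with an SE of 0.0365, adjusted p = 3.9e-14). Uhrf1, which maintains DNA methylation (2.38-fold lower), and the origin factors Mcm10 (2.85-fold lower) and Cdc6 (2.06-fold lower) fell too. Without the members that hold an siRNA match, 42 of 42 mitosis genes and 37 of 37 replication genes were lower.

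Promoter words known from cell cycle genes were counted in these lists and in all windows. The CHR word TTTGAA was in 29 of 39 mitosis windows (74.4%, against 14.9% of all), the CCAAT box in 30 (76.9%, against 42.8%), and an E2F word, TTTGGCGC or TTTCCCGC, in 14 of 38 replication windows (36.8%, against 3.21%). In windows of genes at least 2-fold lower the shares were 24.1% for CHR, 49.6% for CCAAT and 5.32% for E2F. In those at least 2-fold higher they were 14.9%, 40.3% and 1.33%. All words were searched on both strands, and none of the searched words contains another. The windows of Top2a and Mcm5, whose falls are given above, are printed.
Top2a promoter, chr11:99024316-99024415, minus strand, CHR in capitals: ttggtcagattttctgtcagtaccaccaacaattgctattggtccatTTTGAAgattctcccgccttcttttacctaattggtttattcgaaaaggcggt
Mcm5 promoter, chr8:75109314-75109413, plus strand, E2F word in capitals: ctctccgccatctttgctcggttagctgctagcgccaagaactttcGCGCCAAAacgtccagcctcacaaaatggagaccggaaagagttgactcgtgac

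Inhibitors of the cycle were less uniform. Cdkn1a, which encodes the CDK inhibitor p21, had 323, 339 and 339.7 CPM in the siFem1b/Keap1 libraries, against 129, 136 and 129 CPM in the siCont libraries. It rose in each treated library (2.55-fold higher, log2 fold change 1.35 with an SE of 0.037, adjusted p = 8.0e-16). Cyclin D1, Ccnd1, had 383, 388 and 381 CPM in the siFem1b/Keap1 libraries, against 722, 696 and 748 CPM in the siCont libraries, and was 1.88-fold lower, whereas Ccnd3 was 1.4-fold higher. Of 13 tested CDK inhibitors, D cyclins and partners, 5 rose (38.5%) and 6 fell (46.2%), against 33.8% and 33.7% over all genes. In the p53 target list 20 of the 35 tested members (57.1%) rose and 9 (25.7%) fell (median 0.35), with 4 falls under library totals alone. Btg2, an antiproliferative cofactor of mRNA decay, had 80.05, 84 and 83.1 CPM in the siFem1b/Keap1 libraries, against 12.4, 12.5 and 12.1 CPM in the siCont libraries, with no overlap (6.68-fold higher), and the autophagy-linked Trp53inp1 was 3.29-fold higher.

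Interferon-response genes rose almost throughout the list, where 33.8% of all tested genes rose and 33.7% fell. Of the 54 of 60 that were tested, 51 rose (94.4%) and 1 fell (1.85%), Ifit2, with a median log2 fold change of 1.39. Antigen presentation genes of moderate level were among them. Tapbp, the peptide-loading chaperone of MHC class I, had 236, 241 and 250.5 CPM in the siFem1b/Keap1 libraries, against 70.7, 72.4 and 71.7 CPM in the siCont libraries. The MHC heavy chains H2-K1 (91.5, 92.8 and 97.3 CPM in the siFem1b/Keap1 libraries, against 28.4, 32.3 and 26.4 CPM in the siCont libraries) and H2-D1 (74.4, 75.2 and 74.2 CPM in the siFem1b/Keap1 libraries, against 27.4, 32 and 27.5 CPM in the siCont libraries) had no treated library within the control range. Tapbp was 3.39-fold higher (log2 fold change 1.76 with an SE of 0.0387, adjusted p = 7.1e-17), H2-K1 3.24-fold higher, H2-D1 2.58-fold higher and Ifi27 2.76-fold higher. Irf7, the master factor of the type I response, stayed low, with 3.31, 3.52 and 3.88 CPM in the siFem1b/Keap1 libraries, against 0.313, 0.35 and 0.318 CPM in the siCont libraries, and was 10.8-fold higher (log2 fold change 3.44 with an SE of 0.198, adjusted p = 1.7e-11). Many of the list are near the detection limit in siCont: requiring at least 5 CPM in 3 libraries left 29 called higher. The summed level of the list was 1815 to 1861 CPM in siFem1b/Keap1 and 849.8 to 918 CPM in siCont. The interferon-stimulated response element, searched as GAAA, any 2 bases and GAAA, was in 21 of 44 windows of the list (47.7%) and 3.70% of all. It was in 5.41% of windows of genes at least 2-fold higher and 5.67% of those at least 2-fold lower. Bst2, which encodes the antiviral tether tetherin and rose (2.10 on the log2 scale), holds 2 overlapping copies.
Bst2 promoter, chr8:71537548-71537647, minus strand, elements in capitals: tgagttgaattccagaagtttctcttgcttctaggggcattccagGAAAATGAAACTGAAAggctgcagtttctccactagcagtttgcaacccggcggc

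Genes of amino acid supply and the integrated stress response mostly fell, where 33.8% of all tested genes rose and 33.7% fell. Of 49 tested ATF4 and integrated stress response genes, 5 rose (10.2%) and 38 fell (77.6%), with a median of -0.68. Slc7a5, the importer of large neutral amino acids, had 90.6, 88.1 and 89.2 CPM in the siFem1b/Keap1 libraries, against 312, 315 and 324 CPM in the siCont libraries. All treated libraries sat well under the controls (3.55-fold lower, log2 fold change -1.83 with an SE of 0.0368, adjusted p = 3.3e-17). Aldh1l2 had 23.1, 24 and 22.3 CPM in the siFem1b/Keap1 libraries, against 109, 97.9 and 113 CPM in the siCont libraries, Lars, the leucyl-tRNA synthetase, 75.5 ± 1.93 CPM in siFem1b/Keap1 and 208 ± 6.22 CPM in siCont (2.75-fold lower), and Atf4 itself was lower (-0.90 on the log2 scale). The C/EBP-ATF word TGATGCAA was in 11 of 39 windows of the list (28.2%) and 0.822% of all. It was in 1.25% of windows of genes at least 2-fold higher and 1.06% of those at least 2-fold lower. Aldh1l2 and Slc7a5 hold no siRNA match in the searched 3′ UTR, while Lars holds a siFem1b match. Without matched members, 4 of 40 rose and 31 fell.

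Lysosomal genes rose. In the lysosome and autophagy list 50 of the 61 tested members (82%) rose and 6 (9.84%) fell, with a median of 0.49 and a summed level of 9867 to 10019.9 CPM in siFem1b/Keap1 and 7271 to 7781 CPM in siCont. Neu1, the lysosomal sialidase, had 54.8, 57.3 and 60.5 CPM in the siFem1b/Keap1 libraries, against 21, 23 and 21.1 CPM in the siCont libraries, and was 2.65-fold higher (log2 fold change 1.41 with an SE of 0.0519, adjusted p = 3.7e-14). The acid glucosidase gene Gaa (133 ± 5.59 CPM in siFem1b/Keap1 and 60.7 ± 0.957 CPM in siCont) was 2.19-fold higher and the peptidase gene Tpp1 (139 ± 3.28 CPM in siFem1b/Keap1 and 80.8 ± 2.76 CPM in siCont) 1.73-fold higher. Gpnmb had 27.9, 28.6 and 27.9 CPM in the siFem1b/Keap1 libraries, against 2.01, 1.91 and 2.27 CPM in the siCont libraries. The CLEAR word TCACGTGA, bound by TFEB and TFE3, was in 7 of 47 windows of the list (14.9%) and 2.00% of all. It was in 1.08% of windows of genes at least 2-fold higher and 1.42% of those at least 2-fold lower.

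Mitochondrial and housekeeping lists differed in direction, and some depend on the scaling. The shares over all tested genes were 33.8% higher and 33.7% lower. Of 13 mitochondrially encoded mRNAs, 7 rose and 0 fell (12 rose with no filter on low counts), mt-Cytb and mt-Nd4 (1874 ± 178 CPM in siFem1b/Keap1 and 1357 ± 76.8 CPM in siCont) among them, while siFem1b/Keap1 library 3 was the lowest of its group for both. Of 76 nuclear respiratory chain and ATP synthase genes, 19 rose (25%) and 22 fell (28.9%), and with library totals alone 36 rose and 14 fell. The rises numbered 10 without siCont library 1 or library 3, 31 without siCont library 2 and 12 without siFem1b/Keap1 library 3. Sdhd (45.3 ± 2.53 CPM in siFem1b/Keap1 and 98.8 ± 5.89 CPM in siCont, 2.18-fold lower, with a siFem1b match), Sdhb (1.56-fold lower), Atp5a1 (1.42-fold lower) and Cyc1 (1.43-fold lower) were lower. In the mitochondrial ribosome 4 of the 76 tested members (5.26%) rose and 44 (57.9%) fell (13 and 37 with library totals, and 7 rises without siCont library 2). Mrpl20, with a siKeap1 match, had 15.9, 15.8 and 17.7 CPM in the siFem1b/Keap1 libraries, against 55.1, 58.5 and 51.1 CPM in the siCont libraries, and was 3.34-fold lower. Cytosolic ribosomal protein genes fell in 50 of 80 cases and rose in 0, by a median of -0.20 (19 lower and 1 higher with library totals), Rpl10 (1.32-fold lower) and Rpl8 (1.32-fold lower) included. Proteasome genes fell in 22 of 41 cases and rose in 3, but rose in 16 and fell in 11 with library totals, so the direction of that list depends on the scaling. Its rises also numbered 0 without siCont library 1, siCont library 3 or siFem1b/Keap1 library 3, and 6 without siCont library 2. Psmd12 (1.63-fold lower) and Psmd3 (1.57-fold lower) were lower. Among chaperones 8 of the 35 tested members (22.9%) rose and 19 (54.3%) fell, with mitochondrial Hspd1 (578 ± 19 CPM in siFem1b/Keap1 and 995 ± 27 CPM in siCont, 1.72-fold lower) and Hspa9 (1.58-fold lower) and the endoplasmic reticulum proteins Canx (1.59-fold lower) and Hsp90b1 (1.5-fold lower) lower. Of 24 regulators of mitochondrial biogenesis, 5 rose (20.8%) and 14 fell (58.3%). Nrf1 (1.66-fold lower), Tfam, which packages mitochondrial DNA (34.4 ± 1.53 CPM in siFem1b/Keap1 and 59.1 ± 2.65 CPM in siCont, 1.72-fold lower), Pprc1 (1.47-fold lower) and Gabpb1 (1.66-fold lower) fell, while the coactivator Ppargc1a had 1.33, 2.08 and 2.04 CPM in the siFem1b/Keap1 libraries, against 0.652, 0.51 and 0.905 CPM in the siCont libraries, a rise at a low level (2.59-fold higher, log2 fold change 1.37 with an SE of 0.27, adjusted p = 1.8e-04).

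Glycolysis, lipid and matrix genes moved in both directions, where 33.8% of all tested genes rose and 33.7% fell. In glycolysis and hypoxia 17 of the 41 tested members (41.5%) rose and 22 (53.7%) fell. Besides Slc2a1, the pyruvate dehydrogenase kinase Pdk1 (2.28-fold lower) and the hypoxia-induced hydroxylase Egln3 (29.1 ± 2.19 CPM in siFem1b/Keap1 and 63.9 ± 1.14 CPM in siCont, 2.19-fold lower) fell, and the brain-type aldolase Aldoc rose (6.76, 7.48 and 6.14 CPM in the siFem1b/Keap1 libraries, against 0.939, 1.08 and 0.831 CPM in the siCont libraries). In sterol and fatty acid synthesis 23 of the 36 tested members (63.9%) rose and 8 (22.2%) fell. The desaturase Scd1 (742 ± 31.1 CPM in siFem1b/Keap1 and 445 ± 5.42 CPM in siCont, 1.67-fold higher) and the sterol reductase Tm7sf2 (3.46-fold higher) rose, and the elongase Elovl6 (2.2-fold lower) fell. In the extracellular matrix 37 of the 67 tested members (55.2%) rose and 23 (34.3%) fell. Col5a3, a chain of fibrillar collagen V, had 371, 374 and 388 CPM in the siFem1b/Keap1 libraries, against 87.1, 84.1 and 79.99 CPM in the siCont libraries, all treated libraries at more than 4 times any control (4.51-fold higher, log2 fold change 2.17 with an SE of 0.0393, adjusted p = 9.2e-18). Lama2, the laminin chain of muscle basement membrane (105 ± 4.71 CPM in siFem1b/Keap1 and 31.5 ± 1.34 CPM in siCont), was 3.33-fold higher, and the crosslinking enzyme Loxl2 (57.8 ± 2.35 CPM in siFem1b/Keap1 and 138 ± 1.44 CPM in siCont) 2.38-fold lower. Among SRF and YAP targets 13 of 39 rose (33.3%) and 17 fell (43.6%), or 20 and 13 with library totals. Actg2 (2.63-fold higher) and Cnn2 (1.65-fold higher) were up and Axl (1.54-fold lower) and Crim1 (1.9-fold lower) down. Of 22 chemokine and cytokine genes 11 rose (50%) and 8 fell (36.4%). Il1f9, an interleukin-1 family cytokine, had 6.94, 7.19 and 6.83 CPM in the siFem1b/Keap1 libraries, against 0.60, 0.637 and 0.954 CPM in the siCont libraries, and Tslp, an epithelial cytokine, had 9.1, 8.31 and 7.55 CPM in the siFem1b/Keap1 libraries, against 1.3, 1.31 and 1.47 CPM in the siCont libraries. Spp1, osteopontin, had 743 ± 6.63 CPM in siFem1b/Keap1 and 1391 ± 100.3 CPM in siCont (1.87-fold lower), and Tnfrsf12a, the receptor of TWEAK, was 1.62-fold lower.

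**Figure D4:**
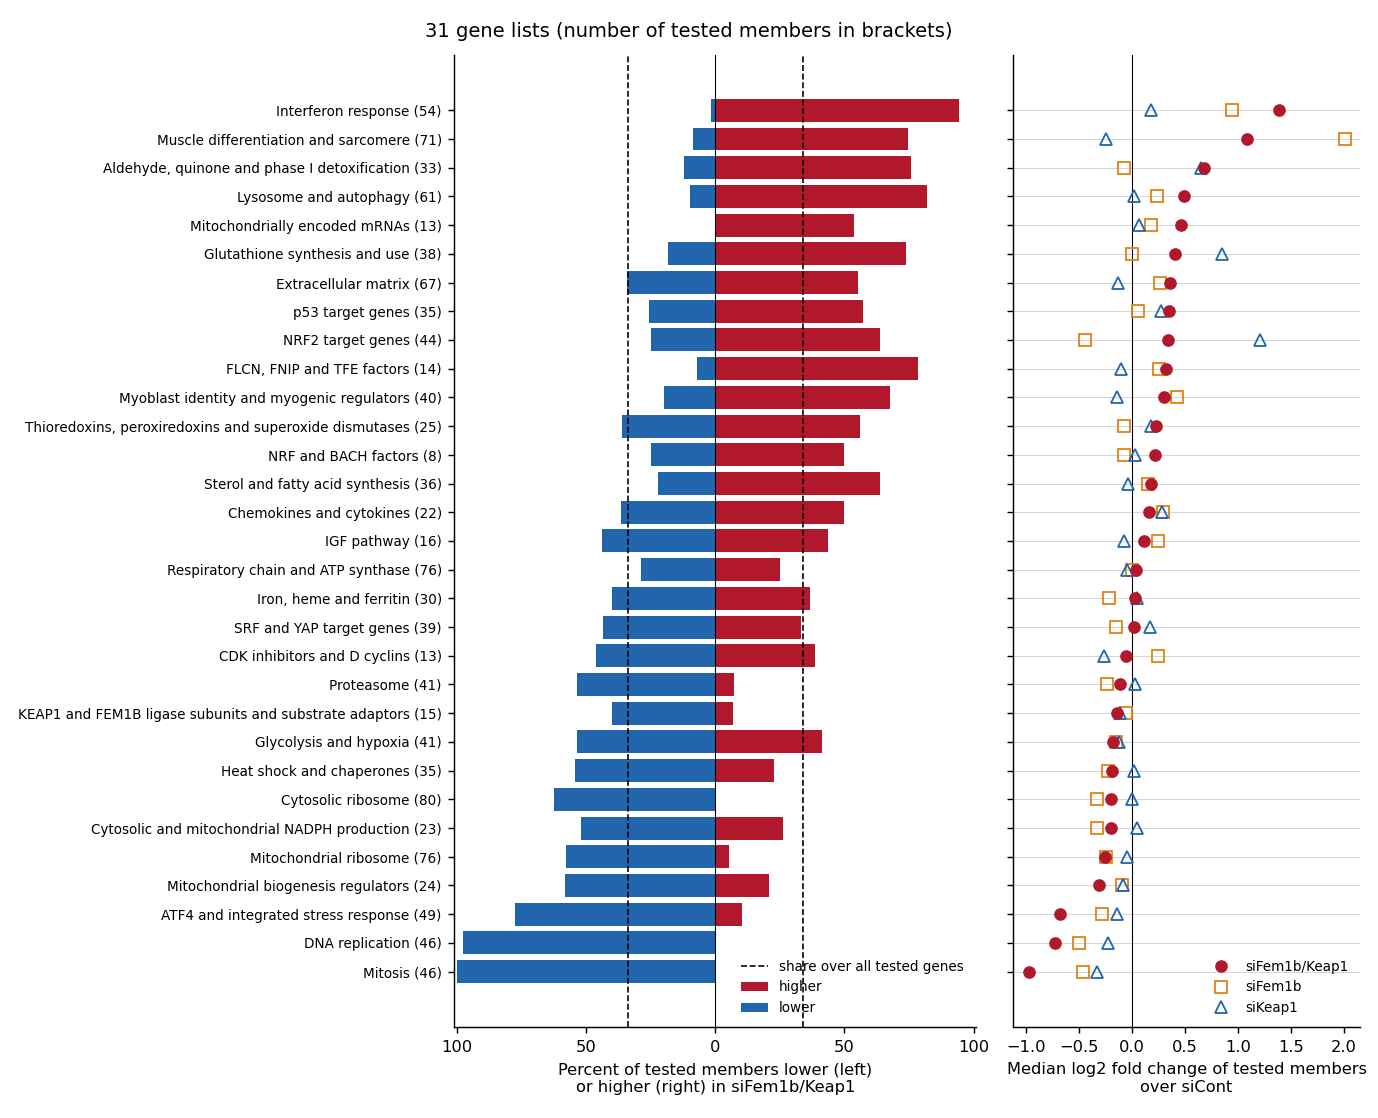
For 31 gene lists, left, the percent of tested members lower or higher in siFem1b/Keap1 than in siCont (adjusted p under 0.05), with dashed lines at the shares over all tested genes (33.7% and 33.8%), and right, the median log2 fold change over siCont in siFem1b/Keap1, siFem1b and siKeap1, which share the siCont libraries. Interferon and muscle lists lie at the top and mitosis and DNA replication at the bottom.

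Markers of several other cell types rose too, where 33.8% of all tested genes rose and 33.7% fell. The filter on low counts used all 4 groups, so a marker near 0 in siCont could be tested through a treated group. For such a marker, Cdh1 and Rgs5 among them, a rise was the only call possible, and the counts of rises are weighted by this. Of 16 epithelial and keratinocyte markers 10 were tested, 9 rose and 0 fell, and their summed level was 151 to 169 CPM in siFem1b/Keap1 and 43.8 to 49.3 CPM in siCont. Krt19 had 107, 119 and 123 CPM in the siFem1b/Keap1 libraries, against 33.4, 37.7 and 33.1 CPM in the siCont libraries, Krt14 31.1, 32.5 and 32.5 CPM in the siFem1b/Keap1 libraries, against 10.7, 9.49 and 8.95 CPM in the siCont libraries, and E-cadherin, Cdh1, 3.5, 3.99 and 4.6 CPM in the siFem1b/Keap1 libraries, against 0.0783, 0.191 and 0.122 CPM in the siCont libraries. In all of these the groups did not overlap. Of 10 fibroblast and fibro-adipogenic markers 9 were tested and 9 rose (sum 3264 to 3332 CPM in siFem1b/Keap1 and 2084 to 2163 CPM in siCont), among them Dcn (8.16, 8.54 and 6.86 CPM in the siFem1b/Keap1 libraries, against 1.2, 1.62 and 1.25 CPM in the siCont libraries), Gsn (1.61-fold higher) and Ly6a (2.01-fold higher). Of 9 smooth muscle and pericyte markers 8 were tested, 7 rose and 1, Pdgfrb (1.69-fold lower), fell (sum 1885 to 1998 CPM in siFem1b/Keap1 and 1429.7 to 1489 CPM in siCont). Rgs5, a pericyte regulator of G protein signalling, had 8.89, 7.97 and 8.24 CPM in the siFem1b/Keap1 libraries, against 0.0783, 0.0319 and 0.122 CPM in the siCont libraries, a rise in a gene whose 3′ UTR matches both targeting siRNAs, and the smooth muscle calponin Cnn1 was 2.98-fold higher. Adipocyte markers rose in 4 of 4 tested cases of 9 written (sum 95.6 to 97.9 CPM in siFem1b/Keap1 and 51.6 to 56.1 CPM in siCont), with Plin4 (2.27-fold higher), Cebpa (2.79-fold higher) and Pparg (1.41-fold higher) expressed and Fabp4 between 0 and 0.443 CPM. Of 14 macrophage and leukocyte markers 3 were tested and 2 rose (sum 19.9 to 21.1 CPM in siFem1b/Keap1 and 11.3 to 12.9 CPM in siCont). The other 11, among them Ptprc, Adgre1 and Tyrobp, were below the filter on low counts. Of 9 endothelial markers 5 were tested and 3 rose below 1 CPM (sum 2.66 to 2.95 CPM in siFem1b/Keap1 and 1.18 to 1.54 CPM in siCont). With the first run alone these 3 were below the filter on low counts and so were not tested. Tie1, Emcn, Erg and Cldn5 were below the filter in the reported fit. Cd68 had 5.71 ± 0.455 CPM in siFem1b/Keap1 and 1.56 ± 0.349 CPM in siCont and Cd14 13.7 ± 0.436 CPM in siFem1b/Keap1 and 9.89 ± 0.816 CPM in siCont, and Csf1r, the defining receptor of macrophages, was at 0.208 to 0.391 CPM in siFem1b/Keap1 and 0.191 to 0.313 CPM in siCont and did not pass (adjusted p = 0.49). Of 11 Schwann cell and neuron markers 6 were tested, 3 rose (1 without siCont library 3) and 2 fell, Ngfr and the neurofilament gene Nefl (269 ± 11.2 CPM in siFem1b/Keap1 and 603 ± 13.4 CPM in siCont), with a sum of 547 to 564 CPM in siFem1b/Keap1 and 861 to 891 CPM in siCont. Of 9 bone and cartilage markers 4 were tested, and Sox9 (1.45-fold lower) and Runx2 (1.15-fold lower) fell, each with a siFem1b match, while Comp (0.29 ± 0.0214 CPM in siFem1b/Keap1 and 0.0356 ± 0.0119 CPM in siCont) and Sp7 (0.551 ± 0.0725 CPM in siFem1b/Keap1 and 0.283 ± 0.0312 CPM in siCont) rose below 1 CPM. Runx2 did not pass with library totals alone, nor Sp7 without siCont library 1, siCont library 3 or siFem1b/Keap1 library 1, nor Fabp4 without siCont library 1 or siFem1b/Keap1 library 2. The part of such markers in the other changes was not tested.

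Set beside the single treatments, which share its control libraries, the double depletion took a different place from gene to gene. Median log2 fold changes over siCont of the NRF2 targets were 0.34 in siFem1b/Keap1, -0.44 in siFem1b and 1.21 in siKeap1. For muscle genes they were 1.09 in siFem1b/Keap1, 2.01 in siFem1b and -0.24 in siKeap1, for mitosis -0.98 in siFem1b/Keap1, -0.46 in siFem1b and -0.33 in siKeap1, for the ATF4 list -0.68 in siFem1b/Keap1, -0.28 in siFem1b and -0.14 in siKeap1, for interferon 1.39 in siFem1b/Keap1, 0.95 in siFem1b and 0.18 in siKeap1, and for lysosomes 0.49 in siFem1b/Keap1, 0.23 in siFem1b and 0.015 in siKeap1. Over all genes, 62.1% were called for siFem1b and 42.2% for siKeap1 against siCont. The direct tests of the double against each single called 43.1% of genes against siFem1b and 63.6% against siKeap1.

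Nqo1 lay between the single treatments, at 152 CPM in siFem1b/Keap1, 28.4 CPM in siFem1b, 401 CPM in siKeap1 and 74.1 CPM in siCont, and was 5.36-fold higher (log2 fold change 2.42, adjusted p = 7.1e-18) than in siFem1b and 2.63-fold lower (log2 fold change -1.40, adjusted p = 2.0e-15) than in siKeap1. Slc7a11 did not follow it. Its means were 10.8 CPM in siFem1b/Keap1, 10.4 CPM in siFem1b, 154 CPM in siKeap1 and 19.4 CPM in siCont. The rise seen with siKeap1 alone was not seen with both siRNAs, where Slc7a11 against siKeap1 was 14.3-fold lower (log2 fold change -3.84, adjusted p = 2.8e-15). Myog stood at 4.97 CPM in siFem1b/Keap1, 59.3 CPM in siFem1b, 0.0367 CPM in siKeap1 and 1.57 CPM in siCont, and was 11.9-fold lower (log2 fold change -3.57, adjusted p = 3.2e-16) than in siFem1b. Acta1 went the other way, at 132 CPM in siFem1b/Keap1, 64.4 CPM in siFem1b, 13.5 CPM in siKeap1 and 6.89 CPM in siCont, and was 2.06-fold higher (log2 fold change 1.04, adjusted p = 3.0e-11) than in siFem1b. Top2a stood at 290.2 CPM in siFem1b/Keap1, 510.4 CPM in siFem1b, 460.0 CPM in siKeap1 and 708 CPM in siCont, lower in the double than in either single treatment (1.76-fold lower, log2 fold change -0.81, adjusted p = 1.5e-11 against siFem1b and 1.58-fold lower (log2 fold change -0.66, adjusted p = 5.5e-11) against siKeap1). Ftl1 had 792 CPM in siFem1b/Keap1, 442 CPM in siFem1b, 5355 CPM in siKeap1 and 3768 CPM in siCont. Thus the double exceeded siFem1b for Ftl1 (1.79-fold higher, log2 fold change 0.84, adjusted p = 6.1e-09) while staying far under siCont.

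The interaction term asks whether the double differs from the sum of the single changes on the log2 scale, and passed for 1667 genes (11.4%). Among genes of at least 5 CPM whose siFem1b/Keap1 and siCont libraries do not overlap, the smallest p-values belonged to Slc6a9, a glycine transporter, at -1.64 (SE 0.0625, adjusted p = 1.1e-11), Gpr137b, a lysosomal membrane protein, at 1.09 (SE 0.050, adjusted p = 8.7e-11), Adh7, a retinol-oxidizing dehydrogenase, at -1.54 (SE 0.0714, adjusted p = 8.7e-11), Acss2, which makes acetyl-CoA from acetate, at -1.88 (SE 0.0882, adjusted p = 9.2e-11), Gclm at -1.27 (SE 0.0643, adjusted p = 2.7e-10) and Slc7a5 at -0.98 (SE 0.0504, adjusted p = 3.1e-10). Gpr137b had 203 CPM in siFem1b/Keap1, 108 CPM in siFem1b, 142 CPM in siKeap1 and 161 CPM in siCont, so its mean was above siCont in the double and below it in each single treatment. Adh7 had 23.2 CPM in siFem1b/Keap1, 23.1 CPM in siFem1b, 106 CPM in siKeap1 and 36 CPM in siCont, and Acss2 18.7 CPM in siFem1b/Keap1, 14 CPM in siFem1b, 42.5 CPM in siKeap1 and 8.64 CPM in siCont, both with their highest mean in siKeap1. Aldh1l2 had log2 fold changes over siCont of -2.20 in siFem1b/Keap1, -0.71 in siFem1b and -0.047 in siKeap1. For Nqo1 the interaction was -0.015 (SE 0.0602, adjusted p = 0.91) and for Acta1 0.067 (SE 0.0968, adjusted p = 0.73), which did not pass.

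**Figure D5:**
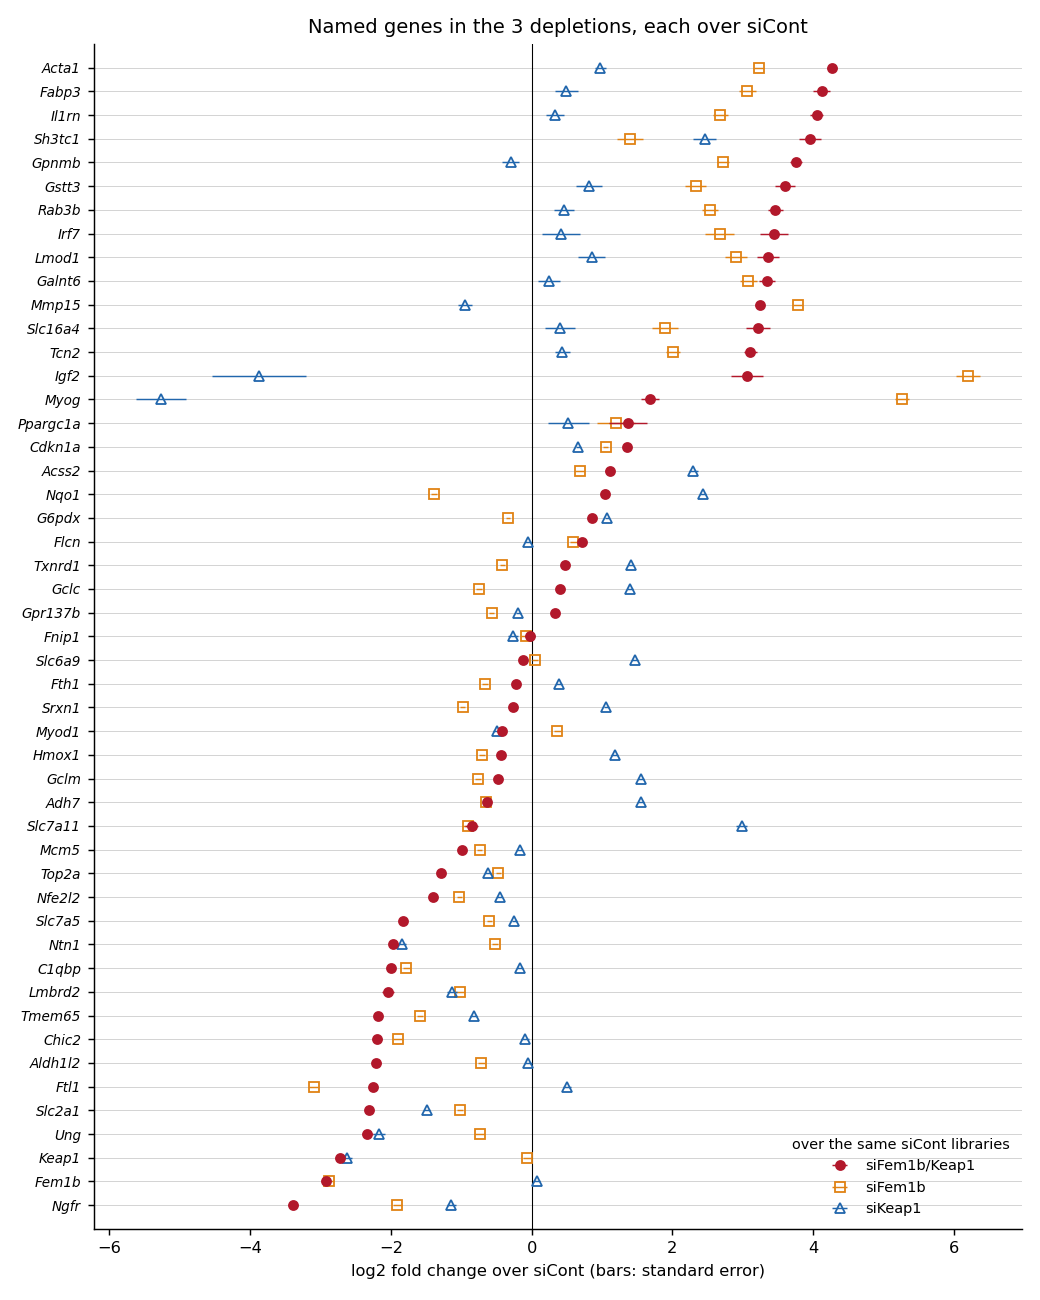
Log2 fold changes over siCont, with standard errors, in siFem1b/Keap1 (filled circles), siFem1b (open squares) and siKeap1 (open triangles), ordered by the value in siFem1b/Keap1. Shown are the named genes of the fixed set, the largest rises and falls and the smallest interaction p-values. Genes named only as list members or for their gain or loss of CPM are left out. The 3 comparisons share the siCont libraries, and for Slc7a11, Gclm and Adh7 the double lies with siFem1b and away from siKeap1.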

How the data were processed

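Polyadenylated RNA of C2C12 cells was sequenced in 12 libraries, each in 2 runs. Estimated counts and TPM per transcript were deposited by the authors for each run, and kallisto 0.44.0 and mm10 are named in the submitters' processing notes. Other settings are not given in the sources used here. TPM, a level corrected for transcript length, was used only where a level is set between genes, and how reads shared by near-identical copies were divided is part of the deposited estimates.

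Transcripts were assigned to genes with GENCODE M21 (116728 of 118489 matched) and the estimated counts of a gene's transcripts and of a library's 2 runs were added up and rounded. Every second run matched its own first run best (12 of 12). Depth was 31883767 to 42980937 counts per library, and TMM factors were 0.952 to 1.045. In R 4.3.3, edgeR 4.0.16 (filterByExpr, 14577 genes kept, robust quasi-likelihood test, 4 groups in 1 fit) gave log2 fold changes, and p-values were adjusted by Benjamini-Hochberg over all tested genes with a threshold of 0.05. Values per library are CPM scaled with these factors, and ± is the SD over 3 libraries. Counts were simulated for the comparison of siFem1b/Keap1 with siCont (14270 genes), with 200 genes changed. The procedure recovered 76 of 100 genes changed 1.5-fold and 92 of 100 changed 2-fold, with 8 false among 176 calls. The measured response was far broader, with 67.5% of tested genes passing in that comparison. Recovery and false calls at such breadth were not simulated, so the simulation gives no error rate for the reported calls.

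The comparison, the gene lists and the named genes were chosen with earlier results of these data known. Named were a fixed set of readout genes, the 12 largest rises and falls (mean of at least 5 CPM over the 6 libraries compared, groups not overlapping), the 5 largest gains and losses of CPM, up to 4 members of smallest p per list, and the 6 smallest interaction p-values. Not every gene so named is described, and 1 is not reported here. Lists are described by counts and medians, with no test of their own. Seed matches were searched in the 3′ UTR of the coding transcript with the highest mean TPM. Promoter windows are RefSeq's (GRCm38.p6), matched for 10825 of 14564 symbols, and the target and UTR positions are on the same assembly. Alternatives covered normalization and filters, limma-voom (limma 3.58.1), DESeq2 1.42.0, each run alone, transcript length, the compared groups alone, each library left out and a replicate block. Leaving out genes with a seed match was added after the data were seen.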

Additional observations from a re-analysis of the deposited data

Results flagged for a closer look

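The change with both siRNAs differed from the sum of the single changes, by the interaction test of edgeR's quasi-likelihood fit, for 71 of the 188 named genes, with the double above the sum in 32 and below it in 39. Given here are the 17 that belong to the fixed readout genes or to the 6 smallest interaction p-values. These were higher in the double than that sum: Ftl1 by 0.33 (adjusted p = 0.014), Fnip1 by 0.33 (adjusted p = 0.044), Myog by 1.70 (adjusted p = 0.039) and Gpr137b by 1.09 (adjusted p = 8.7e-11) on the log2 scale. Several redox genes passed below the sum, with interactions of -2.93 for Slc7a11 (adjusted p = 3.7e-10), -1.27 for Gclm (2.7e-10) and -0.91 for Hmox1 (4.8e-08). Txnrd1 gave -0.52 (9.9e-07), Srxn1 -0.35 (0.00035) and Gclc -0.25 (0.014). Redox genes did not all go this way. Ftl1 was above the sum, and Nqo1 (-0.015), G6pdx (0.12) and Fth1 (0.043), also fixed readout genes, did not pass. Regulators of muscle and the cell cycle gave -0.30 for Myod1 (0.008), -0.37 for Cdkn1a (8.9e-05) and -0.19 for Top2a (0.033). Transport and metabolic genes gave -1.64 for Slc6a9 (1.1e-11), -1.88 for Acss2 (9.2e-11), -1.54 for Adh7 (8.7e-11) and -0.98 for Slc7a5 (3.1e-10). Myog rests on near-0 levels in siKeap1 (mean 0.0367 CPM), and its interaction has an SE of 0.516. The cause of these departures was not tested.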

How the results depend on the processing

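Counts of called genes stayed within 1.5 times those reported under each alternative run, except for the interaction, which called 929 genes with the first run alone and 823 with an offset for transcript length, against 1667. Leaving out 1 library gave 9342 to 10078 calls for siFem1b/Keap1 against siCont, 8472 to 9037 for siFem1b, 5330 to 6294 for siKeap1, 5498 to 6468 for the double against siFem1b, 8650 to 9517 against siKeap1, and 1259 to 1893 for the interaction. Library totals alone moved the share of higher calls to 62.1% for siFem1b/Keap1 (50.1% as reported) and 60.6% for siFem1b (48.3%). For the double against siKeap1 it moved to 61.7% (50.3%). The share of interaction calls above the sum was 53.4% as reported, 32.9% with the first run alone and 36.4% with the second. Interactions of named genes were not followed through the alternatives. Among named genes, Slc6a9 turned sign against siCont with library totals alone (0.0022, log2), and Slc6a9, Vwf, Fabp4, Syp, Runx2 and Sp7 missed the threshold under at least 1 alternative. Counts of small or weakly changed lists that moved are given with the lists. Without genes that hold a seed match, 8455 were called. The cause of these shifts was not tested. Replicate numbers did not pair the libraries (correlations of deviations -0.043, -0.017 and -0.024), and a replicate block gave 9723 calls for siFem1b/Keap1 against siCont, 8891 and 5926 for siFem1b and siKeap1, 6057 and 9123 for the double against each, and 1482 for the interaction. With 3 libraries a group and 1 siRNA per gene, effects of the gene and of the siRNA cannot be told apart, and genes below about 1 CPM carry few counts.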

Other observations

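Gene families outside the lists, chosen after their values were seen and so given without a test, showed a further split. They were counted with the reported scaling alone, so whether small medians hold with library totals was not tested. Of all tested genes 33.8% were higher and 33.7% lower. Genes that process and export RNA were lower in siFem1b/Keap1: 19 of 20 tested heterogeneous nuclear ribonucleoprotein genes (median log2 fold change -0.57), 10 of 10 serine and arginine rich splicing factors (-0.58), 21 of 25 genes of the Lsm and Sm cores (-0.53) and 18 of 20 nucleoporins (-0.61). RNA polymerase subunits (21 of 28 lower, 1 higher), DEAD and DEAH box helicases (38 of 49 lower, 4 higher), initiation factors of translation (39 of 55 lower, 3 higher), centrosomal proteins (27 of 36 lower, 4 higher) and mitochondrial import subunits (15 of 23 lower, 3 higher) had medians between -0.37 and -0.23. Other families had more members higher than lower: 20 of 25 serpins (median 1.24), 13 of 20 semaphorins (0.63), 9 of 13 keratins (1.31), 14 of 21 cytochromes P450 (0.62), 7 of 12 carbonic anhydrases (1.22) and 9 of 14 RGS proteins (0.67). The serpin median was -0.11 in siFem1b and 0.85 in siKeap1, and that of the carbonic anhydrases 0.90 and -0.0058, with the same siCont libraries.

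A few transcripts were nearly unseen in siCont. They were chosen for at most 3 counts over the siCont libraries and a minimum mean level in siFem1b/Keap1, so large ratios follow from the choice. Ckmt1, a mitochondrial creatine kinase, had 406 counts over the siFem1b/Keap1 libraries and 2 over the siCont libraries, a ratio of 204 (95% exact interval 56.2 to 1690, counting error only). Mcpt1, a mast cell protease, had 370 and 2, complement C3 had 168 and 1, and Cox8b, a muscle form of a cytochrome oxidase subunit, 102 and 2. Serpinb5, a serpin of epithelia, had 80 and 0, which is at least 26.8-fold higher against a floor of 3 counts over the group. In the other direction Pgam1-ps2, a pseudogene whose reads may be shared with its parent gene, had 0 counts over the siFem1b/Keap1 libraries and 677 over the siCont libraries (0 CPM in each siFem1b/Keap1 library, against 1.83, 16.3 and 2.3 CPM in siCont). It did not pass edgeR's quasi-likelihood test (adjusted p = 0.057), and most of its counts came from siCont library 2.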
